A study of Homo sapiens with 16 samples.

Results

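The genes described here code for the translation initiation factors other than EIF4G1 and the EIF4A helicases, together with the poly(A)-binding proteins, their partners and the subunit-recycling factors that act with them. They were chosen by gene symbol, with no threshold on a measured value: 48 of the 61906 genes in the deposited tables, with 643 of the 251295 listed transcripts. HNRNPH1, an RNA-binding protein that binds G-rich RNA and regulates splicing, was depleted with a small interfering RNA (siHNRNPH1) in 2 human cell lines, and a control siRNA (siNegative) was used in parallel. HEK-293T is an embryonic kidney line that expresses SV40 large T antigen, and HT-1080 is a fibrosarcoma line. In all 4 groups the cells received 20 nM siRNA and RNA was isolated after 48 h, so the controls were transfected as well. Each group has 3 biological replicates sequenced with short reads, and 1 full-length cDNA (IsoSeq) pool. Whether siHNRNPH1 is a single duplex or a mixture is not given in the sources used here.

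In initiation, eIF2 carries the initiator tRNA to the small ribosomal subunit, and eIF2B recharges eIF2 with GTP. The large complex eIF3 holds the subunit and joins it to the mRNA, whose cap is bound by eIF4E and whose tail is bound by the poly(A)-binding proteins. eIF1, eIF1A and eIF5 govern the choice of start codon, and eIF5B brings in the large subunit. Many mRNAs of the translation machinery begin with a cytosine followed by a run of pyrimidines, the 5′ terminal oligopyrimidine (TOP) start, through which mTORC1 controls their translation.

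The HEK-293T libraries were the deeper, with 107.7 to 121.0 M (mega) expected counts each, against 27.3 to 32.7 M in HT-1080. HNRNPH1 itself stood at 1107, 1105 and 1121 CPM (counts per M counts of the library) in the HEK-293T siNegative libraries and at 234.1, 376.2 and 394.3 CPM in the siHNRNPH1 libraries. In HT-1080 it stood at 634.6, 605.8 and 617.2 CPM with siNegative and 231.5, 231.0 and 228.5 CPM with siHNRNPH1. All siHNRNPH1 libraries lay below all siNegative libraries of their line, with a log2 fold change of -1.76 ± 0.20 in HEK-293T (adjusted p = 0.00939) and -1.49 ± 0.04 in HT-1080 (adjusted p = 6.76e-09). Each adjusted p of a gene's level is from edgeR's quasi-likelihood test, Benjamini-Hochberg (BH) adjusted over all genes tested in that line, "called" means an adjusted p under 0.05, and ± after a log2 fold change or an interaction is its standard error (SE). Replicate 1 of the HEK-293T siHNRNPH1 group stood apart from the other libraries of its group. Its log2 CPM correlated with replicates 2 and 3 at r = 0.929 and 0.922 over 14416 genes, against 0.998 between replicates 2 and 3. It lay farther from the mean of those replicates than they lay from each other in 44 of the 48 members, 29 of the 48 being higher in it and 19 lower, with deviations from -1.13 to 1.36 in log2 CPM. The counts of calls in HEK-293T and the fold changes of most members described there are therefore given with and without that library. HNRNPH1 was at -1.58 ± 0.03 without it (adjusted p = 6.94e-21), and its adjusted p was 0.0514 to 0.076 without siHNRNPH1 replicate 2 or any 1 siNegative library. In HT-1080, siNegative replicate 2 stood slightly apart, at r = 0.995 with replicates 1 and 3, against 0.998 between those, over 13786 genes. Of the line markers, LIN28B and NEFM were high in HEK-293T and CAV1, CD44 and COL6A3 high in HT-1080, while LHX1, listed as a HEK-293T marker, was higher in HT-1080, and S100A4, listed for HT-1080, was near 0 in both lines. Of the blood-cell markers, PTPRC and CD3E were at or near 0 in all libraries.

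All 48 members passed the expression filter in both lines. In HEK-293T, 3 of 48 members were called: PABPC4 rose, and PAIP1 and EIF2D fell. Over all genes tested 10.0% were called, 5.12% higher and 4.88% lower. The other 45 members did not pass. In HT-1080, 33 of 48 members were called, 8 higher and 25 lower, where 65.3% of all genes were called, 32.7% higher and 32.6% lower. The share of members called was thus near that of all genes, while the members called lower, 52.1%, stood beside 32.6% of all genes. The median log2 fold change of the members in HT-1080 was -0.25, beside 0.01 over all genes tested. Without HT-1080 siNegative replicate 2, 36 of 48 members were called there, 11 of them higher, where 70.4% of all genes were called. In HT-1080, 13 members were called with a log2 fold change of 0.5 or more in size, 27.1% of them, beside 37.3% of all genes. The groups' libraries did not overlap in 25 members in HEK-293T (13 above and 12 below the controls), where 43.7% of all genes did not overlap. In HT-1080 the libraries did not overlap in 35 members, 11 above and 24 below, where 70.5% of all genes did not overlap. In bulk RNA, a change in the make-up of a culture and a change in RNA per cell cannot be told apart.

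Without HEK-293T siHNRNPH1 replicate 1, 39 of 48 members were called in that line, 12 higher and 27 lower, where 61.8% of all genes were called, 30.5% higher and 31.3% lower. The members' median log2 fold change was then -0.12, beside -0.0049 over all genes tested. Leaving out any 1 of the other 5 HEK-293T libraries left 0 members called by edgeR, with 5 to 10 members at an unadjusted p under 0.05, where 0 to 3.14% of all genes were called. DESeq2 called 7 of the 48 members on all 6 libraries, where it called 19.9% of all genes. PABPC4, PAIP1 and EIF2D were all called without replicate 1, at adjusted p of 2.19e-15, 1.36e-12 and 4.66e-15.

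**Figure D1:**
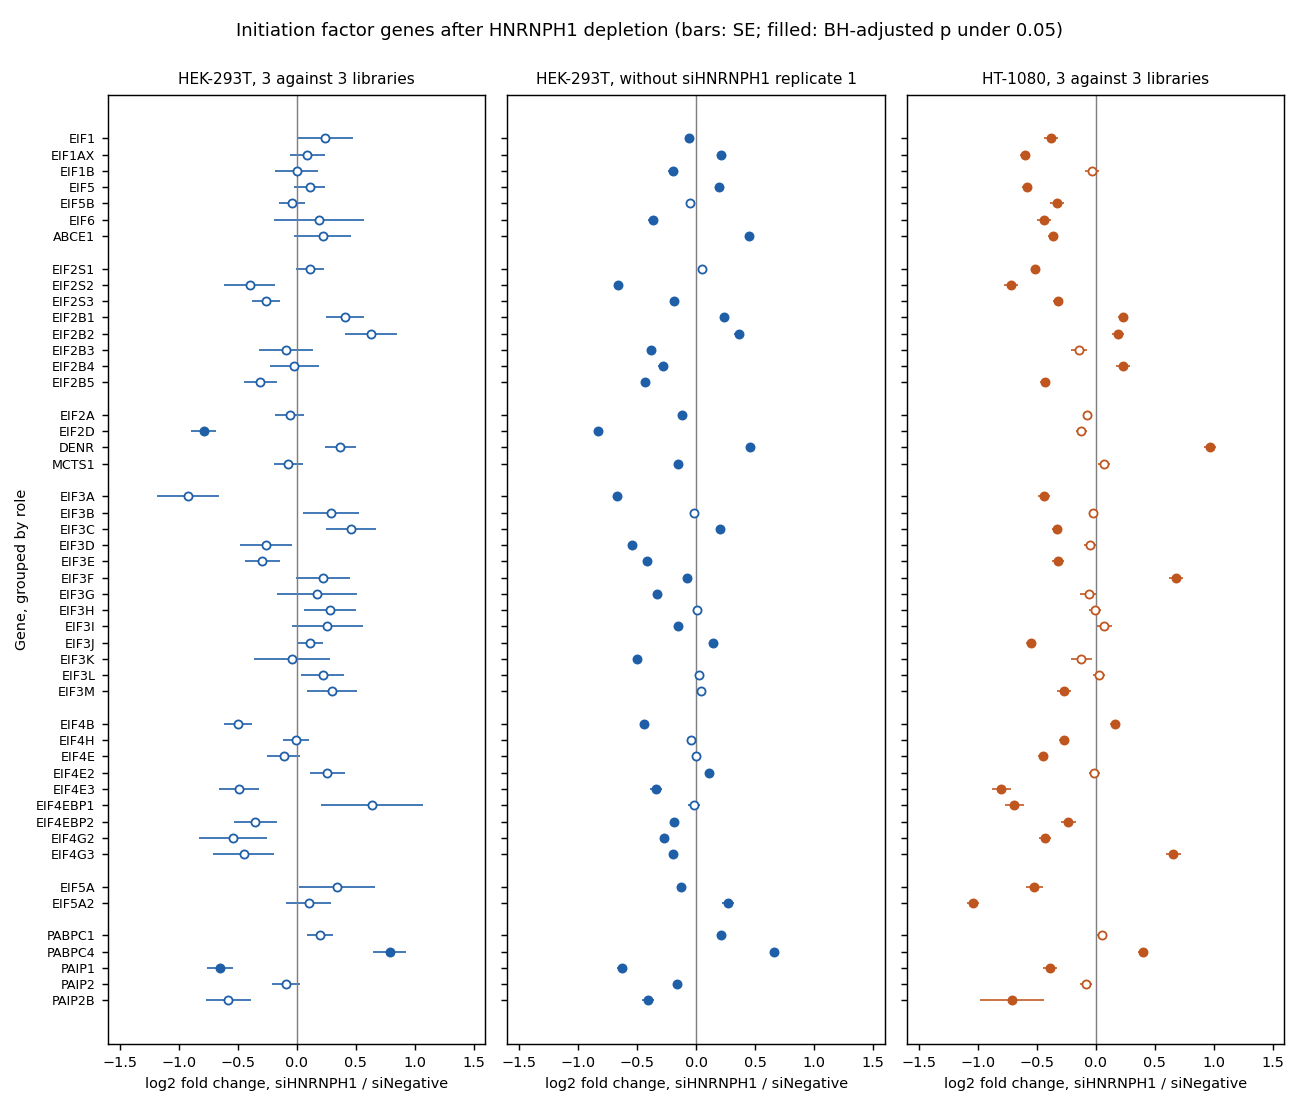
Log2 fold change (siHNRNPH1 over siNegative, bars SE) of the 48 genes, grouped by role from start-site selection at the top to the poly(A)-binding group at the bottom; filled points have a BH-adjusted p under 0.05. In HEK-293T 3 points are filled with all 6 libraries and 39 without siHNRNPH1 replicate 1, and in HT-1080 33 are filled, 25 of them left of 0.

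The TOP start was looked for in RefSeq's promoter sequences (GRCh38.p14, 250 bases before to 50 after each annotated start), because it marks many genes of this machinery. The motif searched was C at the start base followed by 4 or more bases each C or T, on the transcribed strand. Of the members, 39 had 54 promoter entries, and 8 members had 1 entry each with such a start, 14.8% of their entries beside 4.07% of all 35116 promoters. The 15 bases before the start are in lower case and the pyrimidine run from the start on is in capitals, up to 10 bases.
EIF2A (chr3:150546772-150546796, plus strand): tcacccgagcggtttCTCTTTCCgg
EIF2D (chr1:206612456-206612480, minus strand): ggtttccagccgggcCCTTTTCgcg
EIF2S3 (chrX:24054941-24054965, plus strand): ggggtgatttccttcCTCTTTTggc
EIF3D (chr22:36529157-36529181, minus strand): gcgcgcgcatgtttcCTCTTTTCCT
EIF3F (chr11:7987322-7987346, plus strand): ttccgcttccgcctcCTTCTTTCTC
EIF3K (chr19:38619173-38619197, plus strand): ttccgtttccaccacCTCTTCCTgt
EIF3M (chr11:32583816-32583840, plus strand): gcgcggcccagttccCTTTTCCggt
EIF4B (chr12:53006441-53006465, plus strand): ttgcctcatccgggtCTTTTgcgtt
The run was 10 bases or longer in EIF3D and EIF3F and 5 bases in EIF4B, the shortest. In HT-1080, 2 of these 8 genes were called higher (EIF3F and EIF4B) and 2 lower (EIF2S3 and EIF3M), with a median log2 fold change of -0.09. Over all genes tested there, 32.7% were called higher and 32.6% lower. Of the 31 members with a promoter entry and no such start, 5 were higher and 19 lower in HT-1080, with a median of -0.33. In HEK-293T without siHNRNPH1 replicate 1, 7 of the 8 were called lower and EIF3M did not pass, with a median of -0.31. Of the 31, 10 were higher and 16 lower, with a median of -0.06. The share called in that fit was 87.5% of the 8 and 83.9% of the 31, beside 61.8% of all genes (30.5% higher and 31.3% lower). With all 6 HEK-293T libraries, EIF2D was the 1 gene of the 8 called, where 10.0% of all genes were called, and the median of the 8 was -0.16. A matching start only describes these letters, and RNA levels do not measure translation.

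Genes of start-site selection and subunit joining were mostly lower in HT-1080, where 65.3% of all genes were called, 32.7% higher and 32.6% lower. Of these 7 genes, 6 fell there (EIF1, EIF1AX, EIF5, EIF5B, EIF6 and ABCE1) by 0.33 to 0.60 on the log2 scale, and EIF1B did not pass (log2 fold change -0.03 ± 0.06). EIF1AX codes for eIF1A, which opens the small subunit for scanning. In HT-1080 EIF1AX stood at 135.8, 131.4 and 134.1 CPM with siNegative and at 91.9, 93.3 and 91.9 CPM with siHNRNPH1. The groups did not overlap, and the log2 fold change was -0.60 ± 0.04 (adjusted p = 8.07e-07). In HEK-293T EIF1AX stood at 284.7, 282.7 and 286.9 CPM and 242.8, 335.1 and 350.7 CPM, replicate 1 below and replicates 2 and 3 above the controls (log2 fold change 0.09 ± 0.15, adjusted p = 0.749). Without replicate 1 it was called higher at 0.21 ± 0.03.

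EIF5, the GTPase-activating protein of eIF2, followed the same course. In HT-1080 it went from 391.4, 379.0 and 391.0 CPM to 272.2, 274.5 and 269.8 CPM, with no overlap (log2 fold change -0.58 ± 0.04, adjusted p = 1.16e-06). The HEK-293T libraries held 300.1, 299.4 and 300.2 CPM with siNegative and 279.8, 349.0 and 362.4 CPM with siHNRNPH1, where replicate 1 was again below and the other two above (0.11 ± 0.13, adjusted p = 0.624, and 0.19 ± 0.03 without replicate 1, called higher). The siRNA effect on these genes differed between the lines: the interaction (HT-1080 effect minus HEK-293T effect) was -0.76 ± 0.14 for EIF1AX and -0.76 ± 0.11 for EIF5, with adjusted p of 0.0033 and 0.00105. Over all genes, 19.0% were called in the interaction, and of the members 10 of 48 (20.8%). Without HEK-293T siHNRNPH1 replicate 1 the interaction was called in 33 of 48 members, where 49.0% of all genes were called.

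EIF6, which keeps the large subunit from joining too early, stood at 232.9, 263.9 and 237.1 CPM with siNegative in HT-1080 and 185.6, 194.8 and 188.6 CPM with siHNRNPH1, a log2 fold change of -0.44 ± 0.06 (adjusted p = 1.01e-04). The siNegative libraries all lay above. In HEK-293T its siNegative libraries held 77.5, 76.3 and 79.5 CPM and its siHNRNPH1 libraries 142.9, 63.9 and 60.8 CPM. Replicate 1 was far above the controls and the other two below them, so the log2 fold change of 0.19 ± 0.38 with all libraries became -0.37 ± 0.04 without it (adjusted p = 4.14e-09). ABCE1, the recycling ATPase, had a similar split in the opposite sense: 160.0, 292.4 and 313.2 CPM in the siHNRNPH1 libraries against 211.1 to 214.2 CPM in the controls.

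Among the 8 genes of the EIF2 group, HT-1080 separated the eIF2 subunits from part of the eIF2B subunits. Of these 8, 7 were called there, 3 higher and 4 lower, where 65.3% of all genes were called. All 3 subunits of eIF2 (EIF2S1, EIF2S2 and EIF2S3) and EIF2B5, the catalytic subunit of eIF2B, fell. EIF2B1, EIF2B2 and EIF2B4, the regulatory subunits of eIF2B, rose by 0.19 to 0.23 on the log2 scale, and EIF2B3 did not pass (-0.14 ± 0.07). EIF2S2, the beta subunit, went from 234.3, 262.1 and 229.2 CPM to 153.5, 153.6 and 155.6 CPM in HT-1080 with no overlap (log2 fold change -0.72 ± 0.06, adjusted p = 3.32e-06). In HEK-293T it stood at 174.7, 183.1 and 179.2 CPM with siNegative and 177.5, 116.8 and 118.7 CPM with siHNRNPH1, where replicate 1 lay within the controls and the other two below. The log2 fold change there was -0.40 ± 0.22 (adjusted p = 0.31), or -0.66 ± 0.03 without replicate 1 (adjusted p = 3.20e-14).

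EIF2S1, the alpha subunit that stress kinases phosphorylate, stood at 263.5, 268.2 and 262.0 CPM with siNegative and 199.4, 193.4 and 192.7 CPM with siHNRNPH1 in HT-1080. The groups did not overlap and the log2 fold change was -0.51 ± 0.04 (adjusted p = 3.15e-06). Its HEK-293T libraries held 120.3, 123.3 and 123.3 CPM and 138.1, 128.0 and 135.4 CPM, all siHNRNPH1 libraries slightly above, with a log2 fold change of 0.11 ± 0.12 that did not pass (adjusted p = 0.609, and 0.199 without replicate 1). The interaction for EIF2S1 was -0.69 ± 0.12 (adjusted p = 0.0028). EIF2B1 and EIF2B2 were above the controls in all siHNRNPH1 libraries of both lines. In HEK-293T their log2 fold changes were 0.41 ± 0.16 and 0.63 ± 0.22, not called, and 0.24 ± 0.03 and 0.36 ± 0.04 without replicate 1, both called higher.

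Among the 4 factors that deliver tRNA outside the eIF2 route or recycle small subunits, DENR (ENSG00000139726.11), which works with MCTS1 in recycling and reinitiation, had the highest log2 fold change of the 48 members in HT-1080. It stood at 70.0, 64.7 and 65.6 CPM with siNegative and 132.7, 140.0 and 138.9 CPM with siHNRNPH1 there, with no overlap (log2 fold change 0.97 ± 0.05, adjusted p = 1.28e-07). In HEK-293T DENR stood at 156.8, 160.3 and 157.1 CPM and 172.4, 225.3 and 228.4 CPM, all siHNRNPH1 libraries above the controls and replicate 1 nearest to them. The log2 fold change in HEK-293T was 0.37 ± 0.13 (adjusted p = 0.141), or 0.46 ± 0.03 without replicate 1 (adjusted p = 3.27e-12). MCTS1, its partner, did not pass with all libraries in HT-1080 (0.07 ± 0.05) nor in HEK-293T (-0.07 ± 0.12), and was called lower in HEK-293T without replicate 1 (-0.15 ± 0.04, adjusted p = 0.00114). The lowest adjusted p of MCTS1 in HT-1080 with 1 library left out was 0.00584.

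EIF2D (ENSG00000143486.16), a tRNA-binding factor that resembles DENR and MCTS1 joined in a single protein, showed the reverse pattern of lines. Its HEK-293T libraries held 82.7, 82.4 and 82.9 CPM with siNegative and 48.7, 47.6 and 49.4 CPM with siHNRNPH1. The siHNRNPH1 libraries, replicate 1 included, agreed closely with each other and lay far below the controls (log2 fold change -0.79 ± 0.11, adjusted p = 0.0137). In HT-1080 EIF2D stood at 41.5, 41.9 and 38.6 CPM and 40.3, 38.8 and 38.2 CPM, overlapping groups with a log2 fold change of -0.12 ± 0.05 (adjusted p = 0.0692). The interaction was 0.59 ± 0.12 for EIF2D (adjusted p = 0.00529) and 0.53 ± 0.12 for DENR (adjusted p = 0.0123). EIF2A, another tRNA-binding factor, did not pass with all HT-1080 libraries (-0.07 ± 0.04) nor with all HEK-293T libraries (-0.06 ± 0.12). It was called lower in HEK-293T without siHNRNPH1 replicate 1 (-0.12 ± 0.03, adjusted p = 0.00379). With 1 HT-1080 library left out, the lowest adjusted p was 0.0344 for EIF2A and 0.0327 for EIF2D.

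The 13 genes of eIF3 did not move together in HT-1080: EIF3F rose, EIF3A, EIF3C, EIF3E, EIF3J and EIF3M fell, and the other 7 did not pass with all libraries, with log2 fold changes from -0.12 to 0.07. Of these 7, EIF3I and EIF3L passed in a fit with 1 library left out (lowest adjusted p of 1.25e-06 and 0.0047). The group's median there was -0.06, and 46.2% of its genes were called, beside 65.3% of all genes. EIF3F, a subunit with an MPN domain, went from 128.1, 145.7 and 133.9 CPM to 221.1, 230.5 and 231.9 CPM in HT-1080, without overlap (log2 fold change 0.68 ± 0.06, adjusted p = 4.09e-06). In HEK-293T EIF3F stood at 173.7, 178.7 and 174.4 CPM and 272.4, 172.5 and 173.2 CPM. Replicate 1 of the siHNRNPH1 libraries lay far above the controls and the other two just below them, and the log2 fold change was 0.22 ± 0.23 (adjusted p = 0.602) with it and -0.08 ± 0.03 (adjusted p = 0.0216) without it.

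EIF3J, a loosely bound subunit near the decoding site, fell in HT-1080 from 122.9, 127.6 and 125.4 CPM to 91.0, 90.3 and 88.3 CPM (log2 fold change -0.55 ± 0.04, adjusted p = 2.45e-06). In HEK-293T it stood at 101.5, 101.4 and 101.1 CPM with siNegative and 102.3, 113.5 and 118.4 CPM with siHNRNPH1 (log2 fold change 0.11 ± 0.11, adjusted p = 0.571, called higher at 0.14 ± 0.03 without replicate 1). The groups did not overlap in either line and lay on opposite sides of their controls, with an interaction of -0.73 ± 0.10 (adjusted p = 6.85e-04). EIF3C, a core subunit, stood at 761.1, 764.8 and 754.3 CPM and 648.7, 620.4 and 627.1 CPM in HT-1080, lower in all siHNRNPH1 libraries (-0.33 ± 0.04, adjusted p = 8.69e-05). In HEK-293T it stood at 719.2, 734.6 and 716.0 CPM and 1288, 889.2 and 837.6 CPM, higher in all siHNRNPH1 libraries and most in replicate 1 (0.46 ± 0.21, adjusted p = 0.241, and 0.20 ± 0.03 without replicate 1, called higher). The interaction for EIF3C was -0.87 ± 0.24 (adjusted p = 0.0293), a call lost without any 1 HEK-293T siNegative library or any 1 HT-1080 library (0.0594 to 0.0736) and with no filter on low counts (-0.76, 0.053). Reads of EIF3C can be assigned to its near-identical copy EIF3CL, so EIF3C values are uncertain in both lines. EIF3CL held 86.2 to 242.5 CPM in HEK-293T and 143.5 to 173.5 CPM in HT-1080. EIF3A, the largest subunit and scaffold, was below the controls in all siHNRNPH1 libraries of both lines, at -0.92 ± 0.26 in HEK-293T (adjusted p = 0.0823, and -0.67 ± 0.03 without replicate 1, called lower) and -0.44 ± 0.05 in HT-1080 (adjusted p = 5.16e-05).

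**Figure D2:**
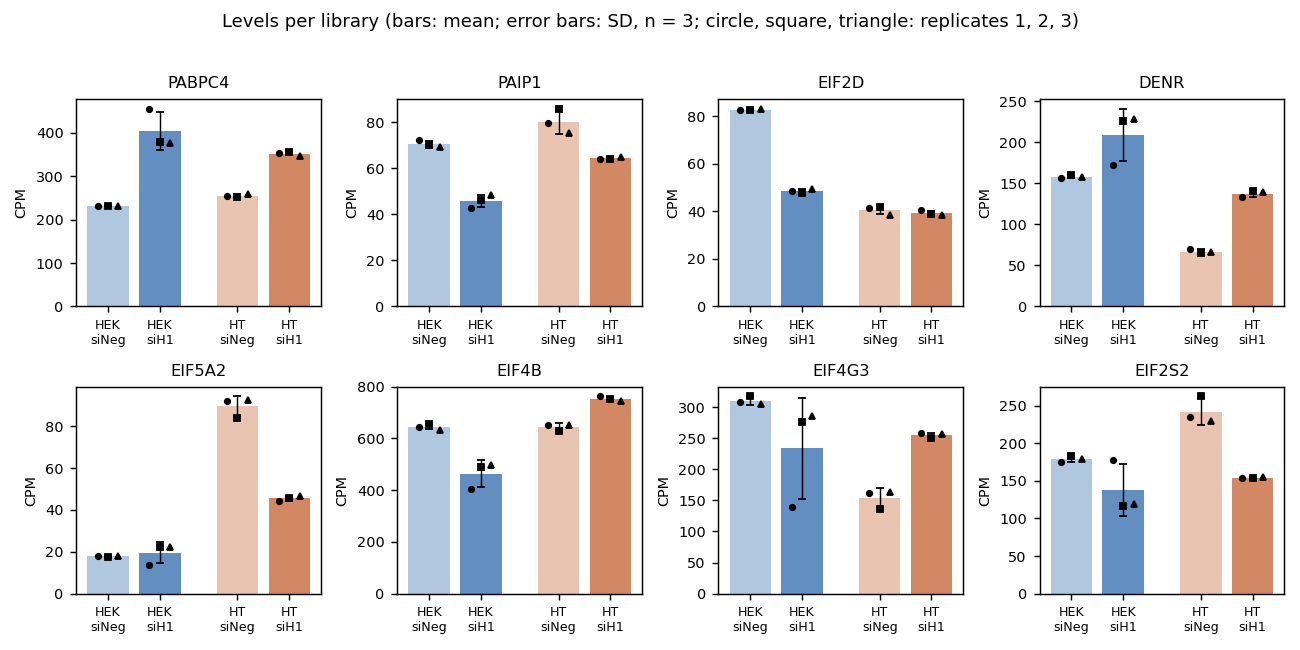
CPM per library for 8 of the genes in both lines, with siNegative in light and siHNRNPH1 in dark bars (mean, error bars SD, n = 3 per group, points the libraries). PABPC4 rises and PAIP1 falls in both lines, EIF2D differs in HEK-293T, EIF5A2 in HT-1080, and replicate 1 (circle) of HEK-293T siHNRNPH1 lies apart in EIF4G3 and EIF2S2.

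In the cap-binding group of 9, HT-1080 had 6 lower genes (EIF4H, EIF4E, EIF4E3, EIF4EBP1, EIF4EBP2 and EIF4G2) and 2 higher (EIF4B and EIF4G3). The share called was 88.9%, beside 65.3% of all genes (32.7% higher and 32.6% lower). EIF4E2, a cap-binding homologue of eIF4E, did not pass (-0.01 ± 0.05). EIF4G3, an eIF4G paralogue that bridges the cap and eIF3, went from 162.4, 136.8 and 164.2 CPM to 258.3, 251.0 and 256.2 CPM in HT-1080. No libraries overlapped (log2 fold change 0.66 ± 0.06, adjusted p = 1.28e-05). In HEK-293T EIF4G3 stood at 308.5, 317.2 and 304.4 CPM and 139.9, 275.6 and 284.9 CPM. All siHNRNPH1 libraries were below the controls, replicate 1 by most (-0.45 ± 0.26, adjusted p = 0.336, and -0.20 ± 0.03 without replicate 1, called lower).

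EIF4B, which stimulates the eIF4A helicase, stood at 653.2, 628.5 and 650.9 CPM with siNegative and 762.6, 752.3 and 745.3 CPM with siHNRNPH1 in HT-1080, higher in all libraries by a small margin (log2 fold change 0.16 ± 0.04, adjusted p = 0.00762). The HEK-293T libraries held 645.9, 654.4 and 634.6 CPM and 404.4, 489.7 and 499.1 CPM, lower in all siHNRNPH1 libraries. In that line its log2 fold change of -0.50 ± 0.12 had an adjusted p of 0.0507, just over the threshold, and was -0.44 ± 0.03 without replicate 1 (adjusted p = 3.86e-12). EIF4B and EIF4G3 thus lay on opposite sides of the controls in the lines, with interactions of 0.59 ± 0.11 and 1.04 ± 0.26 (adjusted p = 0.00354 and 0.0194). The EIF4G3 interaction was not called without HT-1080 siNegative replicate 2 or siHNRNPH1 replicate 1 (0.0599 and 0.0505).

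EIF4E, the cap-binding protein, fell in HT-1080 (-0.45 ± 0.04, adjusted p = 1.12e-05), and did not pass in HEK-293T with or without replicate 1 (-0.11 ± 0.14 and -0.0048 ± 0.03). EIF4E3, an eIF4E-related cap-binding protein, stood at 11.1, 10.7 and 9.84 CPM with siNegative and 6.38, 6.43 and 6.19 CPM with siHNRNPH1 in HT-1080. Its groups did not overlap (log2 fold change -0.80 ± 0.08, adjusted p = 1.87e-05). In HEK-293T EIF4E3 stood at 28.2, 28.4 and 28.1 CPM and 15.3, 21.9 and 24.3 CPM, again lower in all siHNRNPH1 libraries (-0.49 ± 0.17, adjusted p = 0.135, and -0.34 ± 0.05 without replicate 1, called lower). EIF4EBP1, a repressor that sequesters eIF4E until mTORC1 phosphorylates it, went from 75.7, 90.7 and 73.2 CPM to 53.3, 50.3 and 52.3 CPM in HT-1080 (log2 fold change -0.69 ± 0.08, adjusted p = 4.77e-05). The controls all lay above. In HEK-293T its libraries held 43.4, 41.6 and 47.4 CPM and 116.2, 46.8 and 43.6 CPM. The siHNRNPH1 replicates 2 and 3 lay within the controls and replicate 1 far above them (0.64 ± 0.43, adjusted p = 0.403, and -0.02 ± 0.05 without it, adjusted p = 0.712).

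EIF4H (ENSG00000106682.16), like EIF4B a partner of eIF4A, stood at 623.6, 614.3 and 619.3 CPM and 538.8, 537.1 and 537.7 CPM in HT-1080, lower in all siHNRNPH1 libraries (-0.27 ± 0.04, adjusted p = 2.27e-04). In HEK-293T it stood at 464.0, 481.7 and 455.8 CPM and 468.7, 479.5 and 467.8 CPM, overlapping groups (-0.01 ± 0.11, adjusted p = 0.962, and -0.04 ± 0.03, 0.271 without replicate 1).

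The eIF5A pair, whose proteins carry the modified lysine hypusine and relieve stalled ribosomes, fell in HT-1080. EIF5A2 stood at 92.0, 84.0 and 92.4 CPM with siNegative and 44.2, 45.8 and 46.5 CPM with siHNRNPH1 there, the lowest log2 fold change of the 48 members (-1.04 ± 0.05, adjusted p = 1.32e-07). The siHNRNPH1 libraries agreed closely and lay far below the controls. In HEK-293T EIF5A2 stood at 17.8, 17.3 and 18.2 CPM and 13.7, 22.4 and 22.3 CPM, replicate 1 below the controls and the other two above (0.10 ± 0.19, adjusted p = 0.781, and 0.27 ± 0.05 without replicate 1, called higher). The interaction was -1.21 ± 0.19 (adjusted p = 0.00131), the largest in size among the 10 called members. EIF5A, the main form, went from 949.2, 1115 and 978.1 CPM to 750.4, 743.3 and 726.2 CPM in HT-1080 without overlap (-0.52 ± 0.07, adjusted p = 7.63e-05). Its HEK-293T libraries held 694.1, 707.3 and 701.1 CPM and 1340, 680.6 and 656.7 CPM, with replicate 1 high and the other two below the controls (0.34 ± 0.32, adjusted p = 0.555, and -0.13 ± 0.03 without it, called lower). Reads of EIF5A can be shared with the copy EIF5AL1.

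With all libraries, the poly(A)-binding group of 5 held the pair of members (2 of 48) called in the same direction in both lines. Of the 15010 genes tested in both lines, 393 were called higher in both and 421 lower in both. PABPC4 (ENSG00000090621.15), a cytoplasmic poly(A)-binding protein, stood at 230.8, 231.0 and 231.3 CPM with siNegative and 455.0, 380.1 and 377.1 CPM with siHNRNPH1 in HEK-293T. All siHNRNPH1 libraries were far above the controls, replicate 1 the highest (log2 fold change 0.79 ± 0.14, adjusted p = 0.0265). In HT-1080 PABPC4 went from 255.7, 251.6 and 259.3 CPM to 354.5, 355.2 and 347.9 CPM, also without overlap (0.40 ± 0.04, adjusted p = 1.48e-05). PAIP1 (ENSG00000172239.14), which binds poly(A)-binding protein and stimulates translation, stood at 72.3, 70.0 and 69.4 CPM and 42.9, 46.1 and 48.5 CPM in HEK-293T, below the controls in all siHNRNPH1 libraries (-0.65 ± 0.11, adjusted p = 0.0215). In HT-1080 PAIP1 went from 79.9, 85.8 and 75.4 CPM to 64.0, 64.1 and 65.1 CPM (-0.39 ± 0.06, adjusted p = 1.96e-04). The interaction did not pass for either gene (adjusted p = 0.0658 for PABPC4 and 0.286 for PAIP1), and it was called for both without HEK-293T siHNRNPH1 replicate 1 (-0.31, adjusted p = 9.43e-05, and 0.20, adjusted p = 0.0316).

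PABPC1, the main cytoplasmic poly(A)-binding protein, did not pass in HT-1080 (0.05 ± 0.04) nor with all HEK-293T libraries (0.20 ± 0.11), though its siHNRNPH1 libraries lay above the controls in both lines. Without HEK-293T siHNRNPH1 replicate 1 it was called higher there (0.21 ± 0.03, adjusted p = 4.09e-07). PAIP2B, which displaces poly(A)-binding protein and represses translation, was scarce in HT-1080, at 0.659, 0.598 and 0.727 CPM with siNegative and 0.514, 0.337 and 0.421 CPM with siHNRNPH1. The log2 fold change was -0.71 ± 0.27 (adjusted p = 0.0413), and the call was lost without any 1 library other than siHNRNPH1 replicate 1, at adjusted p of 0.0616 to 0.15. In HEK-293T PAIP2B stood at 26.3, 26.7 and 25.9 CPM and 12.8, 19.7 and 21.5 CPM, lower in all siHNRNPH1 libraries (-0.58 ± 0.19, adjusted p = 0.117, and -0.41 ± 0.05 without replicate 1, called lower). PAIP2, its widely expressed paralogue, did not pass in HT-1080 (-0.08 ± 0.05) nor with all HEK-293T libraries (-0.09 ± 0.12). Without HEK-293T siHNRNPH1 replicate 1, PAIP2 was called lower in that line (-0.16 ± 0.04, adjusted p = 6.66e-04).

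Across the lines, with HEK-293T taken without siHNRNPH1 replicate 1, 27 of the 48 members were called in both. DENR, EIF2B1, EIF2B2 and PABPC4 were higher in both lines, and 13 members were lower in both: EIF1, EIF6, EIF2S2, EIF2S3, EIF2B5, EIF3A, EIF3E, EIF4E3, EIF4EBP2, EIF4G2, EIF5A, PAIP1 and PAIP2B. For EIF1 this rests on a HEK-293T log2 fold change of -0.06 ± 0.03 (adjusted p = 0.048) with overlapping groups, and with all libraries it was 0.24 ± 0.24 there and did not pass. EIF6 and EIF5A also changed sign in HEK-293T, from 0.19 and 0.34 with all libraries to -0.37 and -0.13 without replicate 1. The other 10 were called in opposite directions: ABCE1, EIF1AX, EIF3C, EIF3J, EIF5 and EIF5A2 were higher in HEK-293T and lower in HT-1080, and EIF2B4, EIF3F, EIF4B and EIF4G3 the reverse. Of these, EIF3F changed sign in HEK-293T, from 0.22 with all libraries to -0.08, and EIF2B4 went from -0.02 to -0.28. The 17 members called the same way are 35.4% of the 48, beside 31.7% of the 15063 genes tested in both lines, and the 10 opposite are 20.8%, beside 15.2%. With all HEK-293T libraries, PABPC4 and PAIP1 were called in both lines, 2 of 48 members, where 1034 of 15010 genes were called in both. HEK-293T libraries were sequenced more deeply, and whether depth bears on the calls in the lines was not tested.

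**Figure D3:**
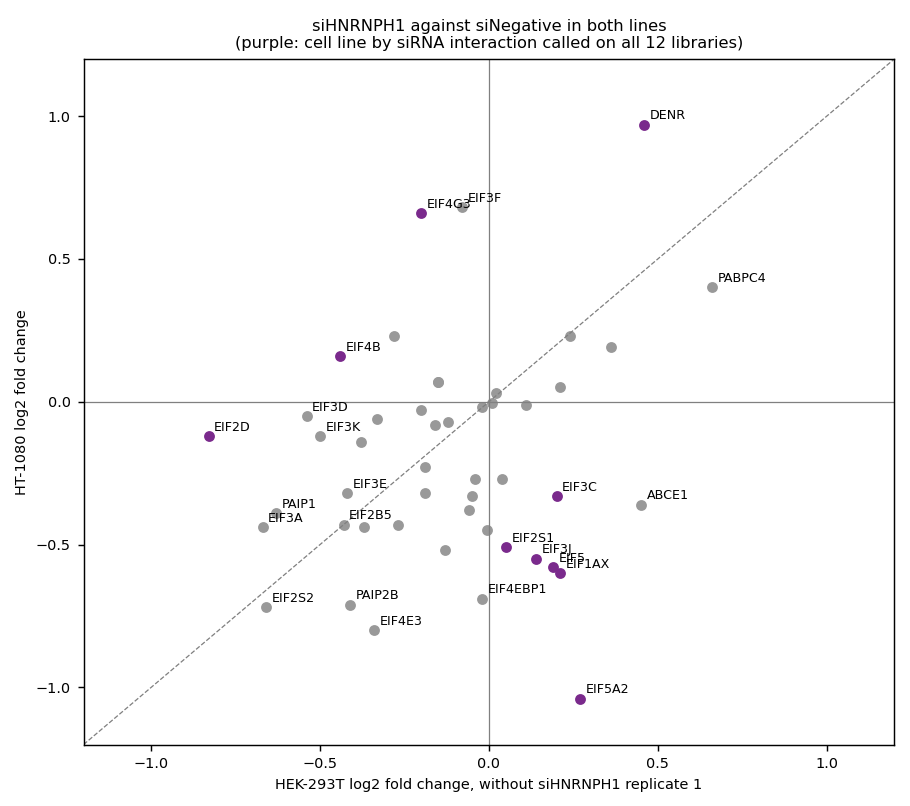
Log2 fold change in HT-1080 (y axis) against HEK-293T without siHNRNPH1 replicate 1 (x axis) for the 48 genes; the dashed line marks equal change, and purple marks the 10 genes called in the cell line by siRNA interaction on all 12 libraries. DENR lies at 0.46 and 0.97, PABPC4 at 0.66 and 0.40, EIF5A2 at 0.27 and -1.04, and EIF4G3 at -0.20 and 0.66.

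Transcript usage, the percent of a gene's expected counts held by each of its transcripts, was called (limma diffSplice, BH-adjusted Simes p under 0.05) in 4 of 45 testable members in HEK-293T, where 8.66% of all genes tested were called. In HT-1080 it was called in 17 of 44, where 19.7% of all genes were called. DENR, EIF3C, EIF4H and EIF6 were called in both lines, 4 of 44 (9.09%) beside 4.57% of the 10103 genes tested in both. The other 13 of HT-1080 were EIF1, EIF1AX, EIF2S3, EIF3A, EIF3B, EIF3D, EIF3G, EIF3K, EIF4E2, EIF4G3, PABPC1, PABPC4 and PAIP1. Without HEK-293T siHNRNPH1 replicate 1 usage was called in 29 of 45 members in that line, where 39.7% of all genes were called. The HT-1080 count was 11, 10 and 9 without siHNRNPH1 replicate 1, 2 and 3, where 14.1, 12.6 and 12.4% of all genes were called.

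EIF4H had the largest shift of any transcript share among these 4 genes. Transcript ENST00000353999.6 held 63.2, 63.6 and 61.8% of EIF4H counts in the HEK-293T siNegative libraries and 10.2, 10.5 and 8.82% in the siHNRNPH1 libraries. In HT-1080 it held 63.8, 66.3 and 65.5% with siNegative and 26.8, 26.3 and 26.9% with siHNRNPH1. The main EIF4H transcript of the controls was thus a minor one in all siHNRNPH1 libraries, HEK-293T replicate 1 included. ENST00000265753.13 took its place, with 29.1, 28.6 and 30.5% in the HEK-293T controls and 70.4, 82.5 and 84.0% after siHNRNPH1. In HT-1080 that transcript held 29.6, 28.1 and 28.4%, then 66.4, 66.6 and 65.9%. No libraries overlapped for either transcript. The gene-level usage test gave adjusted p = 8.78e-04 in HEK-293T and 5.78e-22 in HT-1080 (limma diffSplice). In HT-1080 the call held without each library in turn. In HEK-293T it was lost without any 1 siNegative library (adjusted p of 0.0568 to 0.0689) and was 1.09e-28 without siHNRNPH1 replicate 1.

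**Figure D4:**
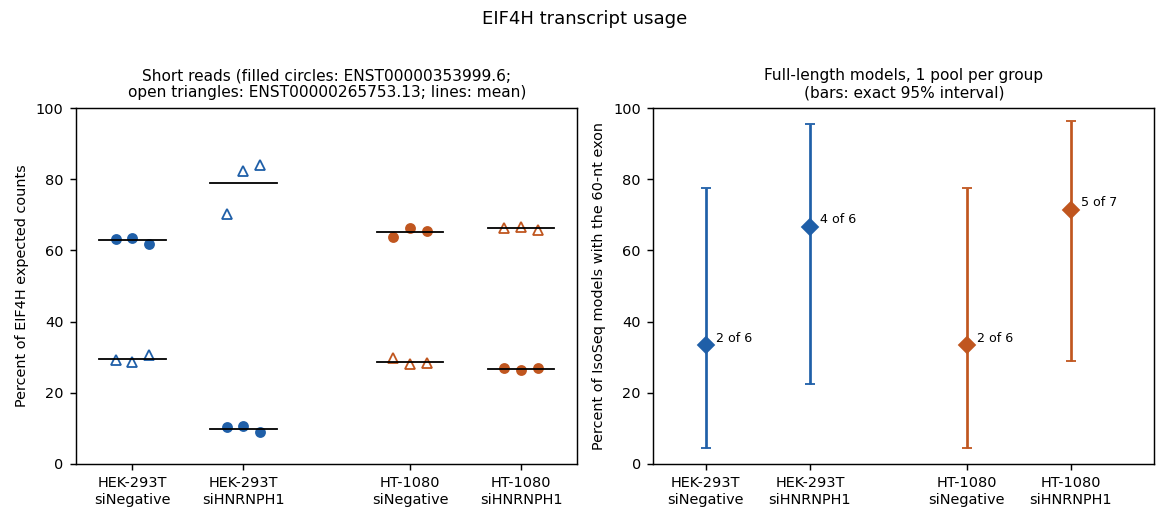
Left, percent of EIF4H expected counts held by ENST00000353999.6 (filled circles) and ENST00000265753.13 (open triangles) in each short-read library; lines are means of 3. Right, percent of informative IsoSeq models of EIF4H that contain the 60-nt exon, with exact 95% intervals, 1 pool per group; the transcripts trade places in both lines, while the 4 model intervals overlap.

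The IsoSeq files list transcript models, each counted once whatever its abundance, so a share of models is not a share of RNA. A 60-nt internal exon of EIF4H at chr7:74190247-74190306 on the plus strand (coordinates as deposited) was present in 2 of 6 informative models with siNegative in HEK-293T and in 4 of 6 with siHNRNPH1. In HT-1080 it was present in 2 of 6 and 5 of 7 models. The exact 95% intervals were 4.3 to 77.7% and 22.3 to 95.7% in HEK-293T, and 4.3 to 77.7% and 29.0 to 96.3% in HT-1080. They are wide at this number of models and overlap, and the difference itself was not tested. With 1 pool per group there is no replicate check. Of 25 cassette exons of the members with at least 5 informative models in every pool, a minimum chosen after seeing the data, this one had the largest difference in the same direction in both lines, 33.4 and 38.1 percentage points. The next, in EIF2A, had 12.5 and 7.7 points. The Ensembl transcripts were not matched to exons here, because no transcript annotation was used.

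EIF6 usage moved by a smaller amount. ENST00000374443.7 held 2.42, 2.39 and 2.07% of EIF6 in the HEK-293T controls and 15.2, 12.8 and 12.9% after siHNRNPH1. In HT-1080 it held 5.12, 6.22 and 6.60%, then 8.60, 10.4 and 10.1%. The share was higher in all siHNRNPH1 libraries of both lines (adjusted p = 0.00965 in HEK-293T and 0.00649 in HT-1080, limma diffSplice). The HT-1080 call was lost without siHNRNPH1 replicate 2 or 3 (adjusted p of 0.118 and 0.0706) and with diffSpliceDGE, edgeR's usage test (0.839). The HEK-293T call was lost without siNegative replicate 1, 2 or 3, at 0.166, 0.135 and 0.16, and stood at 8.82e-10 without siHNRNPH1 replicate 1.

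DENR used 1 transcript almost alone. ENST00000280557.11 held 98.8, 98.6 and 98.8% in the HEK-293T controls and 99.9, 99.4 and 99.5% after siHNRNPH1, and in HT-1080 96.4, 97.3 and 96.7%, then 99.0, 98.9 and 98.6%. The remaining share came mostly from ENST00000537955.1, which went from 2.54, 1.84 and 2.24% to 0.694, 0.86 and 1.23% in HT-1080. The call was made in HT-1080 at an adjusted p of 0.0013 and in HEK-293T at 0.0404 (limma diffSplice), the latter lost without siNegative replicate 1, 2 or 3 (0.216, 0.243 and 0.232) or siHNRNPH1 replicate 3 (0.0751) and kept without siHNRNPH1 replicate 1 (0.00144). With diffSpliceDGE, DENR was not called in either line (0.66 in HEK-293T and 0.947 in HT-1080). EIF3C usage rested on transcripts of small share. ENST00000395587.5 held 3.15, 3.29 and 3.28% in the HT-1080 controls and 4.80, 4.98 and 5.33% after siHNRNPH1. In HEK-293T the transcript with the smallest p, ENST00000568426.1, held 0.876, 0.923 and 0.544% in the controls and was listed at 0 in siHNRNPH1 replicates 1 and 2 and at 1.03% in replicate 3. That HEK-293T pattern is not shared by the replicates. The HEK-293T call for EIF3C (adjusted p = 0.0215) was lost without siNegative replicate 1 (0.073), siHNRNPH1 replicate 2 (0.0864) or siHNRNPH1 replicate 3 (0.0993), and was 0.00101 without siHNRNPH1 replicate 1. Among transcripts of at least 5% of the gene EIF3C was not called in HEK-293T (0.725) or HT-1080 (0.0656, against 0.00268 among all transcripts), nor with diffSpliceDGE (1 and 0.484).

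PAIP1, lower in both lines, also shifted between its main transcripts in HT-1080. ENST00000306846.8 held 32.5, 31.9 and 31.8% of PAIP1 in the HT-1080 controls and 54.2, 47.1 and 46.6% after siHNRNPH1, while ENST00000436644.6 went from 44.4, 44.9 and 44.6% to 26.9, 33.2 and 30.6% (gene-level adjusted p = 5.05e-04, limma diffSplice, and 0.317 with diffSpliceDGE, not called). In HEK-293T the first held 29.0, 28.2 and 29.3%, then 52.3, 44.0 and 45.4%, and the second 54.1, 56.4 and 53.1%, then 36.8, 30.9 and 40.4%. The libraries did not overlap in HEK-293T either, yet the usage test did not pass there (adjusted p = 0.293, and 1.28e-05 without siHNRNPH1 replicate 1). PABPC4, higher in both lines, was called in HT-1080 (adjusted p = 4.39e-05), where ENST00000470443.6 went from 6.72, 7.96 and 7.94% to 2.22, 1.05 and 2.29%. In HEK-293T that transcript held 10.8, 11.9 and 12.1%, then 4.70, 4.85 and 4.98%, and the gene's usage test did not pass (adjusted p = 0.159), though it was called without siHNRNPH1 replicate 1 (1.76e-10) and, on all libraries, among transcripts of at least 5% of the gene (0.00344).

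Among the other lists of the pathway, the regulators of mTORC1, S6 and MNK had 8 of 14 genes higher and 2 lower in HT-1080, where 32.7% of all genes were higher and 32.6% lower. The eIF2 kinases and phosphatase subunits had 2 of 9 higher and 5 lower, the other 4E-binding proteins and repressors 1 of 8 higher and 2 lower, and the termination and recycling factors 1 of 5 higher and 3 lower. Of the hypusination enzymes DHPS and DOHH, DOHH fell (-0.61 ± 0.11, adjusted p = 7.69e-04) and DHPS did not pass. Of the 8 genes listed with the elongation factors, 3 rose and 2 (EEF1B2 and EEF1E1) fell in HT-1080. EEF1B2, a nucleotide exchange factor for eEF1A, stood at 294.4, 349.3 and 292.3 CPM with siNegative and 134.1, 142.1 and 131.6 CPM with siHNRNPH1 (-1.27 ± 0.08, adjusted p = 4.39e-07), and EEF1A2, a tissue-restricted form of eEF1A, went from 90.7, 103.8 and 92.5 CPM to 201.6, 204.9 and 205.9 CPM (1.02 ± 0.06, adjusted p = 3.32e-07). In HEK-293T EEF1B2 was below the controls in all siHNRNPH1 libraries (-0.83 ± 0.29, adjusted p = 0.136, and -1.23 ± 0.03, 3.47e-19 without replicate 1). EEF1A2 was above them in all (0.72 ± 0.37, adjusted p = 0.281, and 0.18 ± 0.05, 0.0113 without replicate 1). EEF1E1, a scaffold protein of the multi-tRNA synthetase complex, went from 38.0, 40.5 and 37.4 CPM to 16.9, 16.0 and 17.8 CPM in HT-1080 (-1.26 ± 0.06, adjusted p = 1.46e-07). It was the 1 gene of these lists called in HEK-293T with all libraries, from 64.6, 62.1 and 63.9 CPM to 45.0, 33.0 and 34.0 CPM (-0.79 ± 0.18, adjusted p = 0.0466, and 9.92e-16 without replicate 1), and it fell in both lines. With another HEK-293T library left out its adjusted p reached 0.183. In HEK-293T without replicate 1, where 30.5% of all genes were higher and 31.3% lower, the mTORC1 list had 3 of 14 higher and 6 lower and the eIF2 kinases and phosphatase subunits 3 of 9 and 5. The other 4E-binding proteins and repressors had 2 of 8 higher and 3 lower there, and the elongation list 1 of 8 and 3. The termination and recycling factors had 2 of 5 and 2, and the hypusination enzymes 1 of 2 and 1.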

How the data were processed

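RNA of 2 human cell lines was measured in 12 short-read libraries and 4 IsoSeq pools. The authors deposited expected counts per transcript for the short-read libraries, estimated with RSEM on GRCh38.p13 per the submitters' processing notes, in 1 table per line. The RSEM version, annotation release, trimming and strand setting are not given in the sources used here. The deposited IsoSeq models are exon coordinates whose build is not named in the files, used here only to describe exons.

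Groups and replicate numbers were taken from the labels, and 0 value columns were left unmatched. For each gene, the expected counts of its transcripts were added up, and they were rounded for the tests. Within each line, genes past edgeR's filterByExpr were scaled by TMM and tested with edgeR 4.0.16 (quasi-likelihood, robust, two-sided, 6 libraries), with Benjamini-Hochberg adjustment over all genes tested and a threshold of 0.05. CPM are the summed expected counts, not rounded, over the library total. They are not TMM-scaled, so small differences in CPM and log2 fold change can differ in sign. Standard errors come from the F statistic. A cell line by siRNA interaction was fitted to all 12 libraries. Transcript usage was tested with limma 3.58.1 (voom, diffSplice, Simes p per gene). Scripts were tested on simulated data. Exact (Clopper-Pearson) 95% intervals of model shares cover counting error only.

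The alternatives were RLE and library-size scaling, no filter, DESeq2 1.42.0, a replicate block, each library left out, transcripts of at least 5% of a gene, and diffSpliceDGE. The members, lists and role groups were chosen with earlier results of these data known. Values in every library are given for members called in HEK-293T, called in HT-1080 with a log2 fold change of 0.5 or more in size, called in the interaction by as much, or with usage called in both lines. Genes of other lists are named where called in the same direction in both lines or in HT-1080 with a log2 fold change of 1 or more in size. Other members, and DOHH, were named after their values were seen. Same-group libraries differed by more than sampling noise (chi-square per degree of freedom from 1.74 to 773.9), so none was counted as a repeat. Replicate p-values measure the spread between cultures of each line, as far as the labels describe the replicates. A listed marker gene is not reported here.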

Additional observations from a re-analysis of the deposited data

Results flagged for a closer look

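The siRNA effect differed between the lines in 10 of the 48 genes by the interaction test in edgeR (HT-1080 log2 fold change minus HEK-293T log2 fold change, BH-adjusted over 21276 genes), and each is listed with its difference. Of the 21276 genes, 19.0% were called. Among the factors of start-site selection, the difference was -0.76 for EIF1AX and -0.76 for EIF5. In the EIF2 group it was -0.69 for EIF2S1. It was 0.59 for EIF2D and 0.53 for DENR, the factors of the other tRNA-delivery route. The eIF3 genes were EIF3C at -0.87 and EIF3J at -0.73. In the cap-binding group the difference was 0.59 for EIF4B and 1.04 for EIF4G3, and in the eIF5A pair -1.21 for EIF5A2. Without HEK-293T siHNRNPH1 replicate 1 all 10 remained called, with differences of -0.86, -0.82, -0.61, 0.65, 0.46, -0.58, -0.74, 0.55, 0.81 and -1.37 in the same order. For EIF3C the call was lost without any 1 HEK-293T siNegative library or any 1 HT-1080 library (adjusted p from 0.0594 to 0.0736) and with no filter on low counts (0.053). For EIF4G3 it was lost without HT-1080 siNegative replicate 2 or siHNRNPH1 replicate 1 (0.0599 and 0.0505).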

How the results depend on the processing

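HEK-293T siHNRNPH1 replicate 1 limits the HEK-293T results, and the number of members called there depends on the processing. It was 3 on all libraries, 1 with no filter on low counts, 7 with DESeq2 and 0 with a replicate block (8 at an unadjusted p under 0.05), where 10.0, 3.89, 19.9 and 0% of all genes were called, and 0 to 39 when 1 library was left out (0 to 61.8% of all genes). In HT-1080 the count was 33, with 32 to 36 over the scalings, filter, tools, block and left-out libraries, where 36.2 to 70.4% of all genes were called. It was 13 when a log2 fold change of 0.5 or more in size was also required (37.3% of all genes). The interaction count of 10 was 8 to 10 over scalings, filter and block, where 8.26 to 19.2% of all genes were called. It was 8 to 33 when 1 library was left out (11.9 to 49.0% of all genes), with 15 without HEK-293T siHNRNPH1 replicate 2 (21.8%) and 17 without replicate 3 (24.7%). Usage in HEK-293T was called in 4 members (8.66% of all genes), in 3 of the 34 still testable among transcripts of at least 5% of a gene (7.28%), in 8 with diffSpliceDGE (5.12%) and in 6 with a replicate block (7.07%). When 1 library was left out it was called in 0 to 29 members (2.39 to 39.7% of all genes). The 0 was without siNegative replicate 1, with 9 members at an unadjusted p under 0.05. Usage in HT-1080 was called in 17 (19.7% of all genes), in 9 of 34 at that 5% minimum (20.3%), in 4 with diffSpliceDGE (5.12%) and in 15 with a replicate block (20.1%). It was called in 9 to 18 when 1 library was left out (12.4 to 18.4% of all genes). The interaction of DENR and of EIF3C was not called with the block (adjusted p = 0.0593 and 0.0692), nor that of EIF3C with no filter on low counts (0.053). Whether the replicate numbers pair the samples was not settled. Deviations of same-numbered libraries correlated weakly, at 0.03 to 0.12 in HEK-293T and 0.02 to 0.12 in HT-1080. Those of differently numbered libraries correlated at -0.13 to 0.09 and -0.13 to 0.06, and such values cannot exclude a pairing. Scaling by library size alone moved the median of all genes by 0.03 in HEK-293T and 0.07 in HT-1080, where 2 and 7 members changed sign, 0 of them called. The EIF4H log2 fold change in HEK-293T changed sign with that scaling, to 0.01. When 1 library was left out, HEK-293T log2 fold changes not called on all libraries crossed 0 in these of the members named by rule: EIF1AX from -0.0040 to 0.21, EIF3F from -0.08 to 0.34, EIF4EBP1 from -0.02 to 0.89, EIF4H from -0.04 to 0.01, EIF5A from -0.13 to 0.52, EIF5A2 from -0.0047 to 0.27 and EIF6 from -0.37 to 0.41. Of the other members, EIF1, EIF3B, EIF3G and EIF3I went from 0.24, 0.29, 0.17 and 0.26 to -0.06, -0.02, -0.33 and -0.15 without siHNRNPH1 replicate 1. The cause was not tested. Of the log2 fold changes recomputed for HNRNPH1 and the members named by rule, 404 kept direction and side of the threshold, 34 lost the call, 14 gained it and 10 reversed.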
